A study of Mus musculus with 8 samples.

Results

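The clustered histone genes are the genes for the linker histone H1 and the core histones H2A, H2B, H3 and H4 that lie together in the mouse genome and are transcribed mainly during DNA replication. They were searched by symbol in the expression table of a series on the posterior tail bud of mouse embryos, and 63 of its 26171 gene symbols matched. The series holds 8 RNA-seq libraries, each from tail bud tissue of embryos collected at day 8.5 (E8.5) with 4 to 5 somites. Of these, 4 were labelled wild-type and 4 knockout for Epop, a gene for an accessory protein of Polycomb repressive complex 2. The labels give no strain and no agent for either group and do not describe the knockout allele. Libraries were made with Smart-seq2, which primes on poly(A), and the molecule is labelled as polyadenylated RNA.

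No expression value is given here for any histone gene, and the knockout and wild-type groups were not compared. The 8 value columns of the table have no names. The name of the deposited table lists labels that match the 8 sample titles, but nothing in the table says that its columns follow them, and columns were not assigned to libraries by order or by values. The histone genes in the table are described by their positions and sequences, which bear on what a poly(A)-primed, gene-level table can hold for them.

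A nucleosome is built from H2A, H2B, H3 and H4, and H1 binds the DNA between nucleosomes. Dividing cells need new histones each time DNA is copied, and most of this supply comes from the clustered genes. Their mRNA usually ends just after a short hairpin, the histone stem-loop, in place of a poly(A) tail. The stem-loop is bound by SLBP, which directs cleavage of the 3′ end and acts in translation and decay of the mRNA. A small part of histone transcripts can instead be polyadenylated at sites further downstream.

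The stem-loop is shown first because it is the feature that sets these mRNAs apart from those that carry a poly(A) tail. Its 16-base consensus, with 3 positions left free, was searched in the sequence after the stop codon on the strand of the transcript. It was found in 39 histone genes, and 5 forms of it occurred. In the lines below the 16 letters of the stem-loop are in capitals and the bases on each side are in lower case.
H2ac18: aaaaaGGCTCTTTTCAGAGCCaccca
H4c6: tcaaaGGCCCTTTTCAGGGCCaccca
H3c3: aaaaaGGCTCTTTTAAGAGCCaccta
H4c14: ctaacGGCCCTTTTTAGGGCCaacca
H2ac20: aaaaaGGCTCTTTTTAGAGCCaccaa
The form shown for H2ac18 was the most frequent, with 24 genes of types H1, H2A, H2B and H3. The form of H4c6 was found in 6 genes, all of them H4 genes (H4c3, H4c4, H4c6, H4c8, H4c17 and H4c18). The form of H3c3 was found in 6 genes, which were H1f6, H2bc3, H2bc12, H3c3, H3c6 and H3c7. The form of H4c14 was shared with H4c9, and that of H2ac20 occurred once. None of the forms was found both in an H4 gene and in a gene of another type. In the mm10 build, whose assembly is GRCm38, the printed window of H2ac18 lies at chr3:96246027-96246052 on the plus strand and that of H4c6 at chr13:23551286-23551311 on the minus strand. The window of H3c3 lies at chr13:23745042-23745067, that of H4c14 at chr3:96262934-96262959 and that of H2ac20 at chr3:96220413-96220438, all on the minus strand.

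The stem-loop lay close to the end of the coding sequence in every gene where it was found. The distance from the stop codon to its first base ranged from 21 bases in H2ac20 to 58 bases in H2ac18 and H2ac19, with a median of 31. Of the 63 genes, 43 had at least 60 bases after the stop codon in GENCODE M21, and 37 of these 43 (86.0%) held the stem-loop there. Over all protein-coding genes with that much sequence after the stop codon, 42 of 18819 (0.223%) held it. Only 5 of those 42 were not among the 63 genes, and all 5 encode histones. They were H2afx, which encodes the DNA damage variant H2A.X, and H2bfm, Hist3h2a, Hist3h2ba and Hist4h4. The names Hist3h2a, Hist3h2ba and Hist4h4 have a form that the symbol search accepted, but no symbol of the table had that form. These genes were therefore left out by symbol, whether or not the table lists them under another one. The remaining 20 clustered genes could not be scored on the same footing because their GENCODE M21 transcripts stop too soon. Sequence past those ends, some of it within the RefSeq spans, was not searched. Of the 20 genes, 14 have no base after the stop codon in GENCODE M21. Even so, 2 of the 20, H4c17 and H2ac24, held the stem-loop in their short remainder.

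Exactly 6 genes had enough sequence but no match. They were H2bc4, H2bc21, H3c8, H4c1, H4c2 and H4c11. With 1 fixed letter allowed to differ, H3c8 and H4c1 matched as well, which brought the number to 39 of 43, against 61 of 18819 (0.324%) over all genes. H3c8 then had the form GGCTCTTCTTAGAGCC, starting 32 bases after the stop codon, and H4c1 had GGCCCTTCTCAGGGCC, starting 30 bases after it. The transcripts of H2bc4 and H2bc21 had 742 and 2192 bases after the stop codon, without the stem-loop even in this looser form. Those of H4c2 and H4c11, with 77 and 430 bases there, also lacked it. The model of H2bc4 has 2 exons and only its spliced sequence was searched, so a stem-loop in its intron would be missed. H2bc4, H2bc21 and H4c11 also held AATAAA, the letters of the commonest poly(A) signal, and H4c2 did not.

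AATAAA was the rarer element in these genes. It was found after the stop codon in 13 of the 43 clustered genes with at least 60 bases there (30.2%), against 14483 of 18819 (77.0%) over all protein-coding genes. Both the stem-loop and AATAAA were present in 9 genes. They were H1f2, H1f3, H1f6, H2ac6, H2ac8, H2bc6, H2bc9, H3c14 and H4c14. The other 4 with AATAAA, H2bc4, H2bc21, H4c1 and H4c11, lacked an exact stem-loop. A longer sequence after the stop codon has more room for 6 given letters. In the 13 genes with AATAAA the lengths ranged from 154 bases in H4c1 to 4931 in H1f3. Over the 43 genes the shortest were 66 bases, in H2bc3 and H2bc11. The share over all protein-coding genes was not matched for length. These matches describe the annotated sequence. They do not show which ends were used in the tail bud.

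The annotations differ in where they end these genes. In RefSeq the end of 36 of the 39 genes with a stem-loop lay 4 to 7 bases past it, at the site where processed histone mRNA ends. The others, H2bc6, H2bc22 and H3c6, ended 1861, 13623 and 428 bases past it, counted along the genome. In GENCODE M21 the same 39 ends lay 3 to 4884 bases past the stem-loop, with a median of 57, and 18 of them lay more than 100 bases past it. A gene's RPKM is divided by its annotated length, and the labels do not state which annotation the deposited values used. For the 58 genes with 1 transcript of 1 exon in GENCODE M21 and 1 transcript in RefSeq, the GENCODE length was 0.733 to 9.57 times the span in RefSeq, with a median of 1.03. It was more than 1.5 times the RefSeq length in 12 genes and was the shorter of the pair in 25.

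H1f3, a somatic H1 gene, had the widest gap, with 776 bases in RefSeq and 7425 in GENCODE M21. H2ac6 had 487 and 2482 bases, H4c14 had 384 and 1630, and H2bc9 had 522 and 1679. At the other end H2ac15 had 536 bases in RefSeq and 393 in GENCODE M21, where its model covers the coding sequence only. For the same number of reads, the RPKM of H1f3 would therefore be 9.57 times as high with the RefSeq length as with the GENCODE length.

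**Figure D1:**
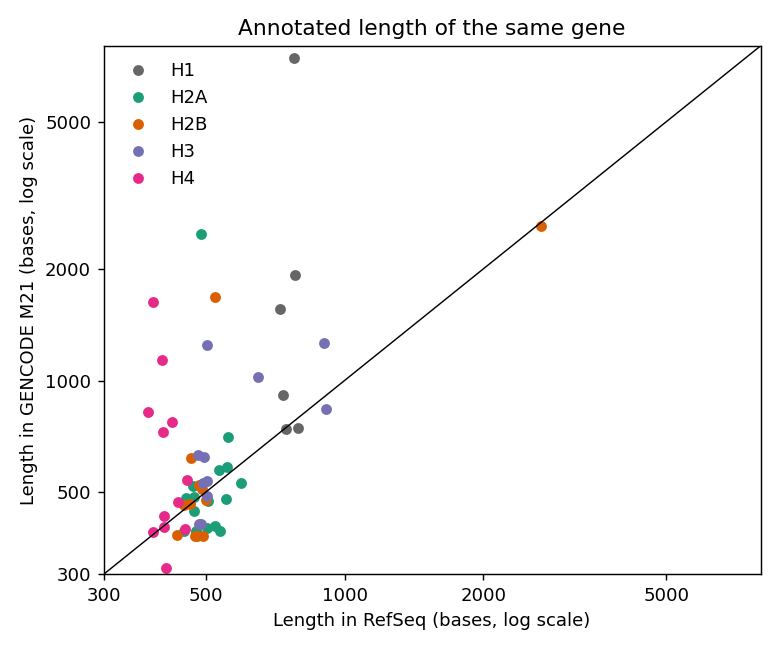
Annotated length of the 58 histone genes with a single simple model, in RefSeq (x axis, bases, log scale) and in GENCODE M21 (y axis, bases, log scale). Each point is 1 gene, coloured by histone type, and the line marks equal lengths. H1f3 stands at the top with 7425 bases in GENCODE M21, while 25 genes lie below the line.

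By type, the 63 genes were 6 H1, 17 H2A, 16 H2B, 12 H3 and 12 H4 genes. They lay in 3 groups, taking genes more than 1000 kb apart as separate. Histone genes that the symbol search did not find, such as Hist3h2a, Hist3h2ba and Hist4h4, were not placed. The first group on chromosome 13 held 22 genes between positions 21715711 and 22043658, from H2bc13 to H2bc11. The second held 31 genes between positions 23531044 and 23934913 of the same chromosome, from H4c8 to H2ac1. The group on chromosome 3 held 10 genes between positions 96219885 and 96270192, from H2ac21 to H2bc18, and had no H1 gene. Of the 6 H1 genes, 5 were in the second group and H1f5 was in the first. The groups spanned 328, 404 and 50.3 kb. The second group also holds the testis genes of the family, H1f6, H2ac1 and H2bc1.

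**Figure D2:**
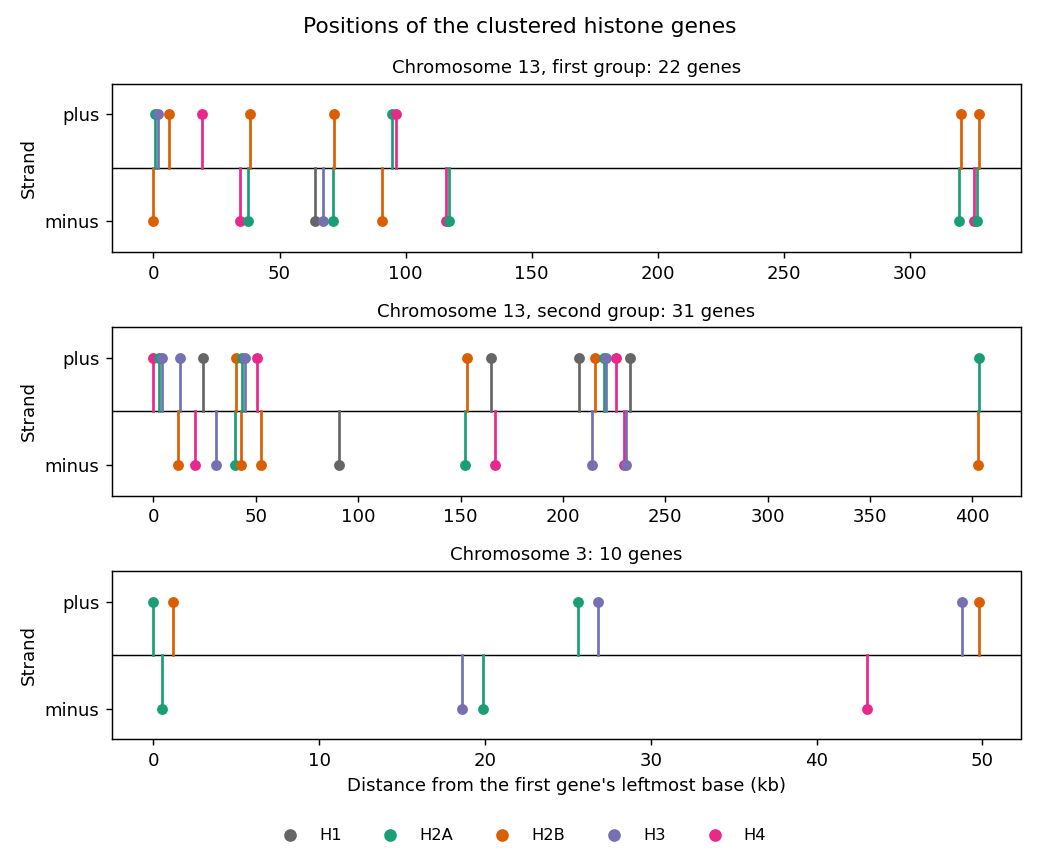
Positions of the 63 histone genes in their 3 groups. The x axis gives the distance in kb from the leftmost base of the first gene of each group, stems above and below the line mark the plus and minus strands, and colours mark the histone type. The 10 genes on chromosome 3 fit within 50.3 kb, while the 31 genes of the second group on chromosome 13 span 404 kb.

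H2A and H2B genes were often neighbours that point away from each other. Among 60 pairs of neighbouring histone genes within the groups, 12 were head to head, with fewer than 1000 bases between their starts. Of these 12 pairs, 11 joined an H2A gene to an H2B gene and 1 joined H2bc9 to the H3 gene H3c7. The gap between the GENCODE M21 models of the H2A and H2B pairs was 175 to 305 bases, with a median of 267. The closest pair was H2ac8 and H2bc8, and the widest was H2ac1 and H2bc1, the testis pair. H2bc9 and H3c7 were 659 bases apart.

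Promoter windows, from 250 bases before to 50 bases after the start in RefSeq, were at hand for 58 of the 63 genes. CCAAT, the letters read by the factor NF-Y, occurred on either strand in 50 of them (86.2%), against 38.2% of 21263 windows of protein-coding genes. It was in all windows of the H1, H2A, H2B and H3 genes and in 3 of 11 windows of H4 genes. TATAAA, the letters of the TATA box, occurred on either strand in 34 of 58 windows (58.6%), against 12.6% of all. By type these were 4 of 6 H1, 11 of 17 H2A, 7 of 14 H2B, 4 of 10 H3 and 8 of 11 H4 windows. The windows of a head-to-head H2A and H2B pair can overlap, so the same letters can be counted for both genes. Where only the 100 bases before the start were searched, TATAAA was found in 18 of 58 (31.0%), against 5.69% of all, and CCAAT in 44 (75.9%), against 20.8%.

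Most of these genes encode the same few proteins. The 12 H4 genes had 11 different coding sequences, and all 12 translated to 1 protein of 103 residues. The 12 H3 genes had 11 coding sequences and 2 proteins of 136 residues, which differ at 1 residue. H3c1, H3c8, H3c10 and H3c11 encode one of these, and the other 8 H3 genes encode the other. The 17 H2A genes encoded 8 proteins, 1 of which was shared by 9 genes. Among the rest, H2ac10 and H2ac15 differed from it at 1 residue, H2ac18 and H2ac19 at 4 and H2ac21 at 9, while H2ac1, H2ac12 and H2ac20 encoded proteins of another length. The 16 H2B genes encoded 10 proteins. The most frequent of them came from H2bc7, H2bc11, H2bc13, H2bc15 and H2bc23, and H2bc4, H2bc6 and H2bc8 shared another that differs from it at 1 residue. Compared with the most frequent protein, H2bc12 differed at 1 residue, H2bc9, H2bc14 and H2bc22 at 2, H2bc3 and H2bc18 at 3 and H2bc21, whose annotated transcript lacks the stem-loop, at 5. H2bc1 encoded a protein of 127 residues, while the other H2B proteins had 126. The 6 H1 genes encoded 6 proteins of 209 to 223 residues, so H1 was the type in which each gene had a product of its own.

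The coding sequences were also close to each other as DNA. Between pairs of equal length, the median identity was 97.4% for H2A, 97.6% for H2B, 97.2% for H3 and 94.7% for H4. The lowest were 81.5% for H2A, 83.3% for H2B, 93.6% for H3 and 88.0% for H4. Identical coding sequences were found in H2ac18 and H2ac19, in H2ac23 and H2ac24, in H3c14 and H3c15 and in H4c17 and H4c18. A read that falls inside these stretches cannot be placed on 1 gene by its sequence alone.

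Sequence shared between annotated genes was measured with windows of 50 bases along each GENCODE M21 transcript. A window counted as shared when the same letters, on either strand, occur in a transcript of another gene. Windows also counted where another gene is annotated over the same position, although such letters need not occur elsewhere in the genome. The median share over the 63 genes was 57.0%, and 34 genes had more than 50% of their windows shared. When only windows shared with other clustered genes were counted, the median was 49.5%. Within the coding sequence the median was 79.0%. With windows of 100 bases the median was 40.1%, or 34.3% with other clustered genes only, and 28 genes were above 50% by the wider count. H2A genes had the highest median of the types, 78.9%, followed by H3 with 62.0%, H2B with 54.6%, H4 with 39.9% and H1 with 1.13%. These medians are of whole transcripts, whose annotated length after the stop codon differs widely, so they do not rank the types by their coding sequences. Genes within each type ranged widely, as for H2B from 0% to 100%. The labels state neither the read length nor the handling of reads with several matches.

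Windows of 50 bases were all shared in 6 genes. They were H2ac18, H2ac19, H2bc18, H2bc23, H3c13 and H3c14. For H2bc23 and H2ac19 the copies lay in other clustered histone genes. For H2bc18, 0% of the windows occurred in another clustered gene, and the model overlaps the long noncoding RNA Gm42743 on the same strand. H3c14 shared 34.8% of its windows with clustered genes and overlaps Gm20634 on the same strand. At the other end, H1f1, H1f5, H1f6 and H2bc21 had no shared window of 50 bases. H4c14 had 1.01%, H1f3 had 2.25% and H1f2 had 8.54%. Within the coding sequence alone, H1f3 had 26.5% and H1f2 had 22.0% of windows shared, so their low shares rest on the long sequence outside it in GENCODE M21.

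**Figure D3:**
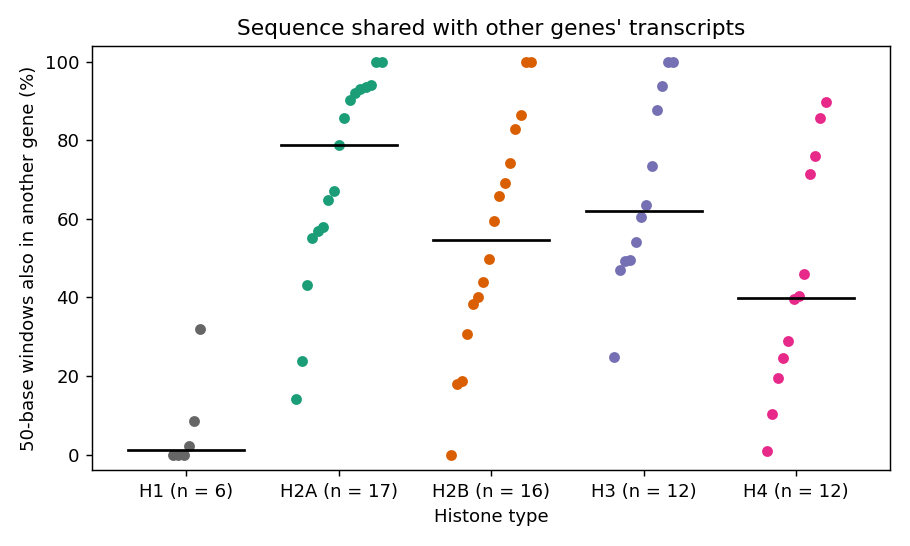
Share of 50-base windows of each histone gene's transcript that also occur in a transcript of another gene (y axis, %), by histone type (x axis). Each point is 1 gene and the bars are medians. H1 genes lie at or below 32.0%, while H2A, H2B and H3 genes reach 100%.

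Other annotated genes overlap the histone genes as well. In GENCODE M21, 23 of the 63 were overlapped by another gene, 6 of them on the same strand and 20 on the opposite strand. An annotated miRNA model lay opposite 16 of the 17 H2A genes and opposite no gene of another type. No share over all protein-coding genes is available beside these counts, so they do not set the histone genes apart from others. H1f4 and H2bc6 overlap each other on the minus strand, because the model of H2bc6 runs from position 23583670 to 23621124 of chromosome 13 and that of H1f4 from 23620629 to 23622558. The labels do not state whether counting used the strand.

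The gene models were simple. The transcript used for each gene had 1 exon in 61 of the 63 genes (96.8%), against 11.5% of 21866 protein-coding genes. The exceptions were H2bc4 and H2bc6. A single annotated transcript was listed for 59 genes, and H2bc6, H2bc22, H2bc23 and H3c14 had more.

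Genes that act on histone mRNA or on its transcription were also listed in the table. The 14 names searched included Slbp for the stem-loop binding protein and Lsm10 and Lsm11 for the U7 particle. Npat, for the activator of the clusters, was included too, although it acts on transcription. Of the 14 names, 12 had a line as written and 13 with RefSeq synonyms. The name without a line was Symplk, which had been misspelled in the list, so that gene was not looked up. All 12 genes of a list of replication-independent histones had a line once synonyms were used. As written, 4 of them had one, among them H3f3a and H3f3b for the replacement histone H3. The list also holds H2afx, although its annotated transcript carries the stem-loop. H2az1, for H2A.Z, was found through its synonym. All 15 genes of an S phase list, such as Pcna and Mcm2, had a line. A line shows only that the gene was listed.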

How the data were processed

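The deposited table holds gene symbols and 8 value columns without names. Its own name calls the values RPKM and lists labels matching the 8 sample titles. These labels were not read as the order of the columns. The name also ends in the word paired, without saying whether reads or samples are meant. Per the submitters' processing notes, TopHat, DESeq2 and the mm10 build were involved, with no version or role stated. The labels name neither a read counter nor an annotation. Only the symbol column deposited by the authors, which is no measurement, was used. All 8 value columns were left out, so sequencing depth was not analysed here and the limma test planned for knockout against wild-type was not run. Symbols were matched to RefSeq (GRCm38.p6), and through its synonyms and overlapping positions to GENCODE M21 (the same build). All 63 matched, 0 of them under the same name in GENCODE M21. The lowest-numbered protein-coding transcript of each gene was used. Motifs, translations, identities and windows were computed with Python 3.11.15 and Biopython 1.88, and the motif search was tested on simulated sequences. Named genes were every member whose protein differs from the most frequent one of its type, the ends of each group and the members a count refers to, several of them chosen after their values were seen. The members and lists were chosen with earlier results of these data known.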

Additional observations from a re-analysis of the deposited data

How the results depend on the processing

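Among the settings planned beforehand, searching only the 100 bases before the start lowered the promoters with TATAAA from 34 to 18. Those with CCAAT went from 50 to 44. The shorter window lies within the longer one, so neither count could rise. Each of the 63 genes was matched to GENCODE M21 through synonyms. That step started from the same 63 symbols and could not add genes, so it does not test whether the list is complete. Leaving out the initiator methionine kept 27 distinct proteins. After seeing the data, windows of 100 bases and a stem-loop with 1 differing letter were added, which gave 28 and 39 genes in place of 34 and 37. The settings for the knockout comparison were not run, since no value column was used. No paired analysis was possible because no value column was assigned to a library. The sample titles do not name pairs, and the groups share only 1 title number. Short annotated ends limit the stem-loop search: 14 genes have no sequence after the stop codon.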
